A study of Mus musculus with 46 samples.

Results

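The constructs described here carried 2 promoter fragments of the Tfcp2l1 locus in a row upstream of a reporter gene. They were taken from the Upstream table as all rows of the Tfcp2l1 library with a promoter in both positions and an activity above 0 in each of 3 biological replicates. Of 626 such pairs listed, 579 (92.5%) met this, out of 50533 two-fragment constructs of the library above 0 in all replicates and 89293 two-fragment constructs listed in the series. Of the 47 pairs with a replicate at 0, 46 joined promoters that were both weak alone, and their highest replicate value was 0.207. A value was 0 in 35 listed pairs in replicate 1 and in 10 each in replicates 2 and 3.

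Reporter activity was measured in a massively parallel assay in mouse embryonic stem cells of the established line E14TG2a. The cells were kept in 2i+LIF, a medium whose kinase inhibitors and cytokine hold them in a naive pluripotent state. Barcoded plasmids were nucleofected into the cells, and RNA was collected 24 h later. The 3 replicates are separate transfections of 1 plasmid pool with no other treatment or genotype. The test therefore measures the spread between transfections and not between differently barcoded plasmids. Activity is the ratio of reporter barcodes in complementary DNA to those in plasmid DNA, on a linear scale. Fragments alone were measured in the same transfections, but from a separately built plasmid library of single fragments. The barcode numbers behind a construct were not analysed here, so the depth of each value is unknown.

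A promoter is the stretch of DNA around a transcription start at which RNA polymerase II and the general transcription factors assemble. Many promoters also hold binding sites for activators, and a promoter can raise transcription from another promoter placed next to it, as an enhancer does. Promoters of mammalian housekeeping genes are usually rich in CpG dinucleotides and active in most cells. Promoters of genes restricted to a tissue often need the factors or distal enhancers of that tissue.

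The pairs held 22 promoter fragments of chromosome 1, each with a listed span of 450 bp in mm10. Their gene names come from RefSeq's annotation of GRCm38.p6. Fragments are named by number and orientation, so that P022+P031+ is P022 in + before P031 in +. First and second are the fragment positions of the deposited table. Which of them lies nearer the reporter is not given in the sources used here, so before, in front, behind and followed refer only to these positions. Of the oriented promoters, 34 occurred as first and 41 as second. The meaning of + and - is not given in the sources used here. Alone, P018 (Ralb) and P024 (Tmem177), whose genes lie on the minus strand, were more active in +, and so was P007 (Nifk) on the plus strand.

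Of the 22 fragments, 11 held the whole 250 bases before an annotated gene start, as RefSeq lists them for GRCm38.p6. Shown here are 6 of these, 5′ to 3′ on the strand of the gene. They were chosen with the results known. Those of Tfcp2l1, Ralb, Tmem185b, Tmem177 and Cfap221 are not shown, although the results name these promoters too. Of the 6 shown, Nifk was the strongest promoter alone and the other 5 were weak alone. The highest pair behind an active promoter was 8.68 for Gli2, 8.19 for C1ql2, 4.42 for Inhbb, 0.630 for 3830432H09Rik and 0.723 for Marco. The active partners differ, with 1 each for P017+, P017- and P031- and 2 for P031+, so this order is not over the same first promoters. Capitals mark CpG dinucleotides (CG).
Nifk (chr1:118321593-118321842, plus strand): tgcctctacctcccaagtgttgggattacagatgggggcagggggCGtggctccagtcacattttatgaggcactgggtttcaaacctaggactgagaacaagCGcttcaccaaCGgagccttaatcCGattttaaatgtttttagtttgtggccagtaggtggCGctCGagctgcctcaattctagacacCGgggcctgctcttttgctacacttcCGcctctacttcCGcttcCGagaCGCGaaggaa
Gli2 (chr1:119053620-119053869, minus strand): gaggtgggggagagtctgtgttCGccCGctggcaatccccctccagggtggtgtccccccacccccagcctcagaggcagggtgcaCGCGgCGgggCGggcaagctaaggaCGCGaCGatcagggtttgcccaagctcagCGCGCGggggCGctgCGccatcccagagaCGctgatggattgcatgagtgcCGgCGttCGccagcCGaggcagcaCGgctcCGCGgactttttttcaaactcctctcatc
Inhbb (chr1:119422249-119422498, minus strand): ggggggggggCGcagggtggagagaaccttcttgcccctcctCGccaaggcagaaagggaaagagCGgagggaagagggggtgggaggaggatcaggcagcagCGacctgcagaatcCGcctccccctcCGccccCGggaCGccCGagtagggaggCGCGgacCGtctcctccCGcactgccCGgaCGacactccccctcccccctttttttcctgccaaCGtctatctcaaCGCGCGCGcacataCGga
C1ql2 (chr1:120340332-120340581, plus strand): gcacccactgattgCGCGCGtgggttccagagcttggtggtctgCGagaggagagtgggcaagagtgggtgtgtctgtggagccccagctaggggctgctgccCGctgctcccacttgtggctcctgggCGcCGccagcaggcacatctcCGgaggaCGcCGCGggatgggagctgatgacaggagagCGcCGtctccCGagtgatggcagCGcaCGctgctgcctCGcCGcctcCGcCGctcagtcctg
3830432H09Rik (chr1:119536166-119536415, minus strand): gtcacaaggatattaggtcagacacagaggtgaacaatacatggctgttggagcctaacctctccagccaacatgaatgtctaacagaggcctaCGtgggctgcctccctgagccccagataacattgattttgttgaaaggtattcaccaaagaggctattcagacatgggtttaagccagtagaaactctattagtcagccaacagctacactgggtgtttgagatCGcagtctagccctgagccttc
Marco (chr1:120505025-120505274, minus strand): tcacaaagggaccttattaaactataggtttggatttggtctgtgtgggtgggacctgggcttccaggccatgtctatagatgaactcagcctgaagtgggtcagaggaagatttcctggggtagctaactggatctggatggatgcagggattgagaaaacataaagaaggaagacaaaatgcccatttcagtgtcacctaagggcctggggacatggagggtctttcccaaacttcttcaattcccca

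The sequences differed in CpG content. Nifk had 12 CpG dinucleotides, Gli2 22, Inhbb 21 and C1ql2 20, whereas 3830432H09Rik had 2 and Marco 0. The median over 32817 such sequences before gene starts was 6, and 92.1% of them held at least 1 CpG. Both strands were searched for the GC box GGGCGG, which lay in 32.7% of all these sequences, and for the TATA box TATAAA, which lay in 12.4%. No match overlapped another motif in these 6 sequences. The GC box occurred once each before Gli2 and Inhbb and in none of the other 4, and the TATA box in none of the 6. Of the sequences not shown, Tfcp2l1 had 16 CpG dinucleotides and 1 TATA box. Cfap221 had 11 CpG dinucleotides, Ralb and Tmem177 18 each and Tmem185b 25. Tmem185b and Tmem177 had 3 GC boxes each and Ralb and Cfap221 1 each, while Tfcp2l1 had none. Behind an active promoter, Cfap221 in - reached 9.79 and P011- of Tfcp2l1 reached 2.48. These letters describe the fragments and were not tested against activity.

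Alone, the 41 oriented promoters with a listed single-fragment value ranged from an activity of 0.0262 to 16.4. Below, a promoter is called active when its activity alone (geometric mean of 3 replicates) was at least 1 and weak otherwise. The threshold was chosen with these values known. Of the 41, 10 were active and 31 weak. The lowest active one was P018- at 1.04, and the highest weak ones were P007- at 0.668 and P022- at 0.549, followed by P021- at 0.273.

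The most active promoter was that of Nifk, which codes for a nucleolar protein that binds Ki-67. P007+ alone gave 14.8, 17.0 and 17.6 in replicates 1 to 3. P019+ (Tmem185b, a transmembrane protein) gave 7.94, 8.71 and 9.42. P022+, 410 bp from the start of the tyrosine phosphatase gene Ptpn4, gave 6.74, 7.28 and 7.93. P007+ lay above both of these in every replicate, and P019+ lay above P022+ in each. P018+ (Ralb, a Ras-like small GTPase) gave 5.68, 6.57 and 7.43. P010- and P010+, within Clasp1, whose product binds microtubule ends, gave geometric means of 5.15 and 4.78. P024+ (Tmem177, a mitochondrial protein) gave 2.71, P025+ (Cfap221, a cilia-associated protein) 2.49 and P021+ (within the polarity gene Epb41l5) 2.33. The last 3 overlapped one another between replicates.

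The fragments of Tfcp2l1, Gli2, C1ql2, Inhbb and Marco were weak alone. The Tfcp2l1 gene, which codes for a transcription factor of naive pluripotency and is expressed in these cells as background, gave 2 fragments. P011- overlaps its annotated start and gave 0.0591, 0.0579 and 0.0483. P012, listed 47 bp downstream of that start, gave 0.104, 0.135 and 0.111 in + and 0.152, 0.156 and 0.159 in -. P013+ (Gli2, a transcription factor of Hedgehog signalling) gave 0.196, 0.210 and 0.218. P031+ (C1ql2, a secreted synaptic protein) gave 0.0209, 0.0407 and 0.0634, and P017+ (Inhbb, a subunit of activins and inhibins) 0.0138, 0.0376 and 0.0640. P033+ (Marco, a scavenger receptor of macrophages) gave 0.0460, 0.0796 and 0.0674. P023 (Gm28209), the weakest fragment, ranged from 0.00755 to 0.0682 in + and from 0.00278 to 0.101 in -. The weakest promoters thus varied widely between replicates, while P012- and P013+ hardly varied.

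The 579 pairs ranged from 0.00659 to 21.9 with a median of 0.331, and 178 reached 1. Replicates correlated with r of 0.92 to 0.94 over pairs on the log2 scale, a description over pairs that share promoters. The SD of log2 activity between replicates had a median of 0.36 over all pairs. It was 0.99 over the 189 pairs below 0.1 and 0.18 over the pairs at or above it, so low activities are much less precise.

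Pairs followed mainly their second promoter. Across 565 pairs, pair activity and the second promoter alone correlated with r = 0.72 (log2). Over 579 pairs the correlation with the first promoter alone was 0.36. Both are descriptions, since pairs share promoters. A sum of 1 value per second promoter and 1 per first promoter took up 79.8% of the variance of log2 pair activity. Second promoters alone took up 57.3% and first promoters alone 17.8%. The 20.2% left over had a mean square 8.45 times the variance between replicates of a pair's mean, so this part was larger than the replicate error. It holds the particular combination and any offset of a construct's own barcoded plasmids, which would repeat in every transfection. These cannot be told apart here.

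Each pair was first set against its second promoter alone, which asks how an added first promoter changes it. Limma, with Benjamini-Hochberg adjustment over all 50038 constructs of the library, called 175 of 565 pairs higher and 107 lower at an adjusted p of 0.05. In the library as a whole, 32.8% of constructs were called higher and 17.7% lower, so the pairs' shares were near the background. The remaining 14 pairs end in P019-, which has no listed activity alone. Without replicate 2 the calls fell to 125 higher and 49 lower. With the median cCRE construct of the second promoter as baseline in place of the promoter alone (cCREs are the candidate cis-regulatory elements of the library), 194 pairs were called higher and 71 lower.

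What the first promoter did depended on which kinds of promoter were joined. The classes rest on the same values alone that serve as baselines, so the grouping itself partly fixes the counts by class against either promoter alone. An active promoter before a weak one raised most pairs: 91 of 119 (76.5%) were called higher and 2 lower. Their median difference was 2.41 on the log2 scale (5.32-fold), and replicates 1 to 3 gave 2.58, 2.39 and 2.38. A weak promoter before an active one gave a small median change of -0.27: 4 of 104 were called higher and 22 lower. Without replicate 2 these became 0 and 4, and without replicate 3 they became 3 and 7. With a variance that follows mean activity they became 11 and 42. Between 2 active promoters, 11 of 27 were called higher and 2 lower, with a median of 0.53. Without replicate 2 only 3 were called higher, and with a variance that follows mean activity 19 were. Between 2 weak promoters, 69 of 315 were called higher and 81 lower, with a median of -0.54, and 46 and 44 without replicate 2.

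First cCREs gave medians in the same directions in front of the same promoters. Of 369 constructs with an active cCRE before a weak promoter, 330 were called higher, with a median of 3.60. Of 1027 with a weak cCRE before an active promoter, 64 were called higher and 236 lower, with a median of -0.27. The promoters and cCREs compared differ in number and in their own activities, and the difference between these medians was not tested. A direct comparison was made for each second promoter, between the mean log2 activity over its first promoters and over its first cCREs in the same replicates. Of 35 second promoters, 4 were called higher behind promoters and none lower, against 8.2% called higher and 12% lower among 317 second fragments of the library. By limma without adjustment, 11 of 35 had a p below 0.05.

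These 4 were both orientations of the C1ql2 promoter, the Inhbb promoter in + and the 3830432H09Rik promoter in +. P031+ was higher behind its 5 first promoters than behind 53 cCREs by 1.64, 1.59 and 1.44 in replicates 1 to 3 (log2). P031- differed by 1.19 (SE 0.25, limma adjusted p = 0.013) and P017+ by 1.09 (SE 0.29, limma adjusted p = 0.035). These 3 rest on 5 first promoters each, among them the active P022+. Of the 5, 2 were active for P031+ and 1 each for P031- and P017+. Over all weak second promoters, 369 constructs had an active first cCRE and 3436 a weak one. The first promoters and first cCREs compared can thus differ in their share of active ones. P020+ differed by 0.60 over 15 first promoters (SE 0.17, limma adjusted p = 0.040). The 4 calls were lost without replicate 2 and without replicate 3, while 12 promoters were called without replicate 1 and 14 with the replicate as a block.

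Taken by first promoter, the Nifk promoter raised every partner. P007+ raised 18 of 18 second promoters, and the mean change over them was 3.75 ± 0.09 (SD, n = 3 replicates, log2). P010- followed with 2.87 ± 0.04 and 19 of 22 called higher. P022+ gave 2.50 ± 0.13 with 24 of 32 called higher and 1 lower. P018+, P019+ and P024+ gave 1.69 ± 0.16, 1.67 ± 0.14 and 1.34 ± 0.09. These SDs are between replicates and do not cover the spread over partners. Medians over partners were 3.66 for P007+, 2.94 for P010-, 1.74 for P022+, 1.69 for P018+, 1.12 for P019+ and 0.91 for P024+. The order of these first promoters was not that of their own activities, since P010- at 5.15 alone gave a larger mean change than P019+ at 8.67. Partners differ between first promoters, so these means are not over the same pairs, and no test was made of their order.

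In - the Nifk and Ptpn4 fragments were weak alone but raised most of their partners. P007- gave 2.10 ± 0.02 with 9 of 12 called higher and 2 lower, and P022- gave 1.69 ± 0.31 with 22 of 28 called higher. Their medians over partners were 2.69 and 1.78. The Tmem177 fragment in - gave 0.39 ± 0.13 with 3 of 12 called higher and 1 lower. The Epb41l5 fragment in - gave 0.30 ± 0.12 with 1 of 6 called higher and a median change near 0. At the other end, P015-, an intergenic fragment listed 21015 bp from the start of Gm33388, lay below the second promoter alone in 20 of 20 pairs on average, and 12 were called lower. Its mean change was -1.77 ± 0.45. P006+, which lies 964 bp from the start of Tsn (translin, a nucleic acid binding protein), gave -1.27 ± 0.28 with 15 of 22 called lower, and P033+ (Marco) lay above the second promoter alone in 3 of 27 pairs, with 7 called lower. Across the 28 first promoters the mean change and their own activity correlated with r = 0.91 (log2), a description over promoters measured in the same libraries.

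Weak second promoters differed widely in what an active first promoter gave. The Tfcp2l1 fragment P012 reached the level of the first promoter or above behind P007+, P010- and P022+, but not behind P018+ or P024+. With the Nifk promoter in front, P007+P012- gave 17.1, 13.5 and 16.1, against 0.152 to 0.159 for P012- alone, a rise of 99.5-fold (log2 6.64, SE 0.19, limma adjusted p = 3.4e-05). With the Ptpn4 promoter in front, P022+P012+ gave 10.8, 9.79 and 13.0 and P022+P012- gave 10.4, 10.2 and 11.3. All 6 of these values lie above the highest replicate of P022+ alone, 7.93. P010-P012- gave 7.66, 8.33 and 9.28, also above every replicate of P010- alone, the highest of which was 5.42.

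These last 3 pairs were the only pairs of an active and then a weak promoter called above the sum of both alone. Their excess over the sum was 0.58, 0.51 and 0.66 on the log2 scale (SE 0.18, 0.16 and 0.16, limma adjusted p = 0.032, 0.031 and 0.014). No pair of this kind was called above the sum without replicate 2 or without replicate 3. With the less active Tmem177 promoter in front, P024+P012- gave 0.681, 0.881 and 1.34, below every replicate of P024+ alone. P024+P012+ gave 1.64, 2.42 and 2.18 against 2.36, 2.57 and 3.26 for P024+ alone, and P018+P012- gave 3.29, 3.44 and 3.76. P012- therefore ranged from 0.929 to 15.5 over its 5 active first promoters, and all 5 pairs were called higher than P012- alone.

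The Gli2, C1ql2 and Inhbb promoters also reached high activities. P007+P013+ gave 8.17, 8.01 and 9.98, against 0.196 to 0.218 for P013+ alone. P022+P031+ gave 8.19, 7.05 and 9.51, the largest rise over a second promoter alone in the pairs at 217-fold (log2 7.76, SE 0.43, limma adjusted p = 5e-05). P022+P017+ gave 4.04, 4.27 and 5.00, or 137-fold (log2 7.10, SE 0.56, limma adjusted p = 0.00016). P022+P031- gave 3.59, 3.89 and 2.84 (log2 6.44, SE 0.37). In none of these pairs did the replicates overlap those of the second promoter alone. The baselines of C1ql2 and Inhbb differed about as much between replicates as stated above, which leaves the fold imprecise and the level of the pair precise. Behind the weaker P024+, P031+ gave 0.589, 0.620 and 0.691.

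The Cfap221 promoter in - varied with the first promoter. P007+P025- gave 8.22, 10.4 and 11, while P022+P025- gave 0.655, 0.689 and 0.697. P018+P025- gave 0.706, 0.776 and 1.16. Every replicate of the Nifk pair lay above every replicate of the other 2. The Tfcp2l1 fragment P012- gave 15.5 behind P007+ and 10.6 behind P022+, values much closer to each other. The difference between these ratios was not tested.

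The Marco promoter and P015 gave low activities behind the same P022+ and P007+. P022+P033- gave 0.0289, 0.0569 and 0.0700, within the range of P033- alone (0.0221 to 0.0586) apart from its highest replicate, and was not called (limma adjusted p = 0.66). P007+P033+ gave 0.212, 0.322 and 0.347 and was called higher than P033+ alone by 2.19 (SE 0.31, limma adjusted p = 0.0018), but remained below P007+ alone by 5.84 on the log2 scale (log2 -5.84). P022+P015- gave 0.0322, 0.0374 and 0.0567 and P022+P015+ gave 0.0362, 0.0328 and 0.0834, and neither was called against the second promoter alone. P007+P015+ gave 0.181, 0.152 and 0.159. Marco in - rose most behind the Tmem177 promoter, where P024+P033- gave 0.593, 0.835 and 0.765 (log2 4.18, SE 0.41, limma adjusted p = 0.00038), and 3 of its 7 pairs with active promoters were called higher. As geometric means behind active promoters, P015 did not exceed 0.174 in either orientation, P033+ did not exceed 0.390 and P033- did not exceed 0.723. Behind the same P024+, P031+ of C1ql2 gave 0.632. The 3830432H09Rik promoter did not exceed 0.630 behind active promoters in either orientation.

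The range over second promoters within 1 first promoter shows the same. Behind P022+, 32 second promoters with a listed value alone ranged from 0.041 (P015-) to 13.0 (P019+). Among second promoters weak alone, this was a range from 0.041 to 11.1 (P012+). Against P022+ alone, P022+P015- was 179-fold lower (limma adjusted p = 6.9e-06), P018+P015+ 163-fold lower than P018+ alone and P019+P015+ 236-fold lower than P019+ alone. The reporter level of an active first promoter was mostly not retained when a weak promoter followed it: 111 of 119 such pairs were called lower than the first promoter alone, with a median of -3.16 (log2), and 3 higher, in a group defined by a high first value. All pairs together gave 198 (34.2%) called higher and 214 (37.0%) lower than the first promoter alone of 579, against 34.7% and 27.1% of the library. Against their first fragment alone, constructs of a cCRE before a promoter gave 40.2% and 26.1%. Those of a promoter before a cCRE gave 23.1% and 42.0%.

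In the opposite arrangement a weak first promoter left the activity to the active second promoter. Of 104 such pairs, 103 were called higher than the first promoter alone, with a median of 4.82 (log2, 28.3-fold), in a group defined by a low first and a high second value. The largest was P015-P007+, which gave 8.99, 13.9 and 13.9 against 0.0208, 0.0484 and 0.0450 for P015- alone. P016+P007+ gave 15.5, 19.0 and 18.8, not distinguishable from P007+ alone by limma (difference 0.11, SE 0.19, adjusted p = 0.67). Where a weak first promoter lowered an active second one, the fragments P006, P015 and P031 in front made up 16 of the 22 calls. Of the 104 pairs, P006+, P006- and P031- were in front in 5 each, P015- in 6 and P031+ in 4. These fragments were picked from the same calls. P006-P018- gave 0.188, 0.250 and 0.283 and P015-P018- gave 0.133, 0.235 and 0.379, against 0.860, 1.01 and 1.30 for P018- alone. In contrast P022-P018- gave 2.29, 2.50 and 2.82, higher than P018- alone by 1.28 (SE 0.23, limma adjusted p = 0.0048).

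With 2 active promoters, 12 of 27 pairs lay above both promoters alone, 11 were called higher than the second promoter alone and 10 higher than the first. P010-P018- rose most over its second promoter, at 7.45, 7.84 and 7.25. The highest activity of all pairs was that of P024+P007+ at 18.6, 24.0 and 23.6, which was not called against P007+ alone (difference 0.41, SE 0.20, limma adjusted p = 0.14). P010-P022+ gave 11.5, 12.3 and 12.9, above P022+ alone in every replicate (difference 0.74, SE 0.18, limma adjusted p = 0.016). P022+P007+ gave 8.45, 9.92 and 8.58, below every replicate of P007+ alone (difference -0.88, SE 0.19, limma adjusted p = 0.0098). Against the sum of both activities alone, limma called none of the 27 pairs higher and 18 lower, with a median of -0.81 (log2). At an unadjusted p below 0.05 there were also 0 higher, and 1 was called higher with a variance that follows mean activity.

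Over all pairs, 33 of 565 (5.84%) were called above the sum and 358 (63.4%) below it, against 11.9% and 53.8% of the library, with a median of -1.42. Constructs of a cCRE before a promoter gave 6.97% and 55.6%, and those of a promoter before a cCRE 4.97% and 69.2%. Without replicate 2, 17 promoter pairs were called above the sum and 240 below it. Against the product of both activities alone, 380 pairs were called higher and 57 lower. That baseline depends on the unit of activity, whose scaling is not known here, and lies below both promoters where both are under 1. Pairs of 2 weak promoters made up 26 of the 33 calls above the sum. These were 8.25% of 315 such pairs, against 11.9% of the library, and 197 (62.5%) were called below the sum.

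Of 315 pairs of 2 weak promoters, 14 reached an activity of 1. For 3 of them, P022-P007-, P016-P007- and P016-P022-, other pairs with the same second promoter came close, at up to 1.11, 1.13 and 0.980. P016-P027+ had no other such pair. The pairs with the largest excess over the sum stood further apart. P020-P012+, the 3830432H09Rik promoter before the Tfcp2l1 fragment, gave 4.35, 3.74 and 4.79. The other 7 pairs of a weak promoter with P012+ had a median of 0.0451, and the other 17 pairs of P020- with a weak promoter did not exceed 0.640. The pair exceeded the sum of both alone 19.1-fold (log2 4.26, SE 0.18, limma adjusted p = 1e-04). P006-P033+ gave 1.69, 3.23 and 3.80, while 17 other pairs of a weak promoter with the Marco promoter in + had a median of 0.0307 (log2 excess over the sum 4.37, SE 0.39, limma adjusted p = 0.00047). P023+P033+ gave 1.23, 0.994 and 0.973. P014-P012+ gave 2.26, 2.09 and 1.59, and P016-P027+, with Tmem37 as second promoter, gave 1.13, 1.05 and 1.04. Lying above the sum of both promoters alone in all replicates was a condition for naming these 5 pairs, so it lends them no further weight. Some of their fragments also gave high pairs with active partners, such as P012+ behind P022+ above. The number of barcodes behind them was not analysed here.

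Falls below the second promoter alone were largest for P006+ as second. P006+ alone gave 0.225, 0.263 and 0.263. P020-P006+ gave 0.0203, 0.00420 and 0.0128, or 24.3-fold lower (log2 -4.60, SE 0.58, limma adjusted p = 0.0011). P013-P006+ gave 0.00997, 0.0434 and 0.0117, below the promoter alone in every replicate. P033+P006+, P033+P014- and P031-P013- were also among the 5 largest falls (log2 -3.95, -4.11 and -3.67), but their replicates spread widely, from 0.00193 to 0.0712, from 0.00103 to 0.0450 and from 0.00216 to 0.0349, with replicate 1 the lowest in each. P033+P006+ was not called without replicate 2 or 3 or with the replicate as a block, P033+P014- not without replicate 1 or 3, and P031-P013- not without replicate 3. P013-P006+, P033+P006+ and P033+P014- were also not called against the median cCRE construct.

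Of the pairs, 135 couples were measured in both orders with both orientations kept, so that the same DNA could be compared. With the more active promoter second, 58 couples (43.0%) were called higher and 13 (9.63%) lower by limma, against 30.6% and 10.5% of 11079 such couples in the library. Couples of a cCRE and a more active promoter gave much the same shares, 43.1% higher and 8.90% lower with the promoter second. Of 43 couples of an active and a weak promoter, 37 were higher with the active one second and 2 lower, with a median of 2.96 (log2). Without replicate 2, 40 couples were called in place of 71.

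The largest difference was between P015-P022+, at 6.81, 5.91 and 7.67, and P022+P015-, at 0.0322, 0.0374 and 0.0567, a ratio of 165 (log2 7.37, SE 0.29, limma adjusted p = 0.00016). The couples lower with the active promoter second were both of the Tfcp2l1 fragment P012 with P022+. P012-P022+ gave 3.97, 4.70 and 5.05, whereas P022+P012- gave 10.4, 10.2 and 11.3. P012+P022+ gave 5.26, 6.67 and 6.53 and P022+P012+ gave 10.8, 9.79 and 13.0. Next to the active Ptpn4 fragment, P012 thus gave the higher activity in the second position, in both orientations. P031+P022+ and P022+P031+ did not differ by limma (log2 -0.23, SE 0.21, adjusted p = 0.44). Among couples of weak promoters, P020-P012+ lay above P012+P020- by 5.67 (SE 0.36), and P006-P033+ above P033+P006- by 6.24 on the log2 scale (log2 -6.24 in the direction tested, SE 0.50).

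Turning a promoter around was compared in both positions. With the second promoter turned and all else kept, 85 of 206 comparisons (41.3%) were higher in + and 15 (7.28%) lower, against 21.4% and 15.8% of the library. Promoters turned behind a cCRE gave much the same shares, 40.4% higher and 8.15% lower, so these are not particular to promoter pairs. All of the comparisons for 6 promoters with at least 4 of them were called higher in +: P007 (7, median 4.53 on the log2 scale), P022 (21, median 3.49), P021 (5, median 3.25), P025 (16, median 3.18), P018 (5, median 2.27) and P024 (6, median 2.11). Among promoters listed alone in both orientations, these 6 are also those with an activity of at least 1 in + and a lower one in -. P010, active alone in both orientations, had a median of -0.20 with 1 call each way over 15 comparisons. P015, weak in both orientations, had a median of -0.03 over 13 comparisons, with differences from -1.58 to 1.34.

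With the first promoter turned, 34 of 168 comparisons (20.2%) were higher in + and 16 (9.52%) lower, against 14.1% and 10.4% of the library. Promoters turned in front of a cCRE gave much the same shares, 20.5% higher and 9.18% lower. The count for promoter pairs varied, at 31, 7 and 15 calls in either direction without replicates 1, 2 and 3. For the Nifk promoter in front, 6 of 11 were higher in + and 1 lower, with a median of 1.30 (log2). For the Ptpn4 fragment in front, 11 of 28 were higher in + and 6 lower, with a median of 0.39, compared with 3.49 for the same fragment as second. For Tmem177, 5 of 12 were higher, with a median of 0.69. The partners in the 2 positions differ, and the difference between positions was not tested.

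The largest effects of orientation came from pairs that stood out above. P006-P033+ exceeded P006-P033- (0.00665, 0.0231 and 0.0168) by 7.65 on the log2 scale (SE 0.57, limma adjusted p = 0.00049). P016-P027+ exceeded P016-P027- by 6.77 (SE 0.81), and P014-P012+ exceeded P014-P012- by 6.06 (SE 0.27). When the first promoter was turned, P006+P033+ (0.0140, 0.0391 and 0.0881) lay below P006-P033+ in each replicate (log2 -6.24, SE 0.73). P016+P027- lay above P016-P027- by 6.15 (SE 0.88) and P012+P013+ above P012-P013+ by 5.40 (SE 0.38). The differences of P006+P033+ and P016+P027- with the first promoter turned were not called without replicate 2.

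Pairs from the Tfcp2l1 gene itself were represented once. P012+P011-, with Tfcp2l1 fragments in both positions, gave 0.126, 0.0648 and 0.00177 and was not called against P011- alone (log2 -1.17, SE 1.57, limma adjusted p = 0.56). Its replicates spread too widely to place it above or below either promoter. P011- was raised by active promoters in 3 of 3 pairs, with P007+P011- at 2.24, 2.62 and 2.59 and P022+P011- at 0.436, 0.320 and 0.439. In 1 pair the same fragment occupied both positions. P016-P016+, with an intergenic fragment 23081 bp from the start of Gm33388, gave 1.25, 1.28 and 1.42. This was 14.6-fold above P016+ alone (log2 3.86, SE 0.21, limma adjusted p = 4.8e-05) and 6.85-fold above the sum of both orientations alone.

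Likeness between promoters was measured as the correlation of log2 pair activity over shared partners, for couples of oriented promoters with at least 8 of these. As second promoters, P012- was most like P013+ (r = 0.97 over 18 shared first promoters), P014+ (r = 0.96 over 14) and P013- (r = 0.94 over 16), against a median of 0.60 over 348 couples. P013 holds the Gli2 start, and P014 lies 4474 bp from it. First promoters are either active or weak, and this split enters r. P012- had a median of 8.40 behind active and 0.0545 behind weak first promoters, and P013+ 2.69 and 0.0684. Likeness within the active or the weak first promoters was not tested. As first promoters, P016+ was most like P024- (r = 0.99 over 10) and P020+ (r = 0.98 over 18), followed by P014- and P024- (r = 0.97 over 11), against a median of 0.80 over 272 couples. These are descriptions over partners of the same libraries, whose own activities differ widely.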

How the data were processed

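The authors' deposited activities are a linear ratio of cDNA to plasmid DNA barcodes, per construct and replicate. Per the labels, 2 plasmid DNA samples of the Tfcp2l1 libraries served as input. Bowtie2 and mm10 are named in the submitters' processing notes. Barcode counting, filters and scaling are not given in the sources used here. From the deposited ratios, log2 values were computed without a pseudocount, constructs with a replicate at 0 being left out.

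Columns were matched to replicates by name. The test of each pair was that of limma 3.58.1 (R 4.3.3), 3 values against 3, with moderated variances and Benjamini-Hochberg adjustment over all two-fragment constructs of the library at 0.05. Order and orientation were tested likewise over all constructs measured both ways. The sum was formed per replicate. Pairs that share a promoter share its error. Same-numbered values come from 1 transfection, and deviations of pair and second promoter alone correlated with r = 0.15, 0.15 and 0.07 in replicates 1 to 3, so the replicate block is an alternative. The test was also run on simulated data whose variance did not depend on activity, unlike that of the pairs. That run therefore does not show how the test performs at low activities.

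Named were every promoter as first or second, the 5 largest rises and falls per baseline and 3 largest differences for order and orientation, past the threshold and the same way in all replicates, and pairs with Tfcp2l1 or 1 fragment in both positions. Other pairs were named after their values were seen. The members, lists and tests were chosen with earlier results of these data known. Alternatives were a pseudocount of 0.01, a minimum activity of 0.05, other baselines, a variance following mean activity, the block, and leaving out each replicate. Promoter sequences are RefSeq's (GRCm38.p6). Tables were handled in Python 3.11.15 with numpy 2.4.6 and pandas 2.3.3.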

Additional observations from a re-analysis of the deposited data

How the results depend on the processing

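Calls against the second promoter alone numbered 282, and 174 to 275 when 1 replicate was left out. Calls against the sum numbered 391, 257 to 361 when 1 replicate was left out, and 234 when only constructs with activities of at least 0.05 entered, which leaves 355 pairs tested. Calls for order numbered 71 (40 to 60 without 1 replicate), for the first promoter turned 50 (7 to 31) and for first promoters against first cCREs 4 (0 to 12), the last also 14 with the replicate block and 7 with the median over partners. Fits with 2 replicates have fewer samples. The cause of the other moves was not tested. With the replicate as a block, calls were 282 against the second promoter alone, 411 against the first, 385 against the sum, 66 for order, 44 and 96 for the first and the second promoter turned. Of the 45 results named by rule, 1 lost its call under the block, 3 against the median cCRE construct, and 1, 3 and 3 without replicates 1, 2 and 3. Results named after their values were seen are not in these counts. No call among the results named by rule reversed. The uncalled P012+P011- lay above P011- alone in replicates 1 and 2 and below it in replicate 3. The mean change per first promoter moved by more than its SD for 14 of 28 with the median over partners and for 4 with zeros kept at a pseudocount. Low activities had the wider spread between replicates.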
